A study of Mus musculus with 8 samples.

Results

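The IL-1 family genes examined here were the 10 that encode the ligands Il1a, Il1b, Il18 and Il33, the antagonists and decoys Il1rn, Il18bp and Il1r2, and the signalling receptor chains Il1r1, Il1rap and Il1rl1. They were taken by symbol, with no threshold on a measured value, and all 10 were found among the 53247 genes of the table. They were measured by RNA-Seq in tumor-associated macrophages (TAMs), gated on CD45, CD11b, MHCII and F4/80, all positive. The tumors grew for 14 days after s.c. implantation of LLC cells, a mouse Lewis lung carcinoma line. The hosts were C57/BL6 mice of 10 weeks, either WT or miR-21 null (miR-21-/-), with 4 samples each that the labels call biological replicates. In the miR-21-/- group the host lacked miR-21 in all of its cells, macrophages or not, while the implanted tumor cells did not come from that host. The title of miR-21-/- sample 1 joins a pair of sample numbers, and whether it is a pool was not given in the sources used here.

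IL-1α (Il1a) and IL-1β (Il1b) bind the receptor IL-1R1 (Il1r1), which then recruits the accessory protein IL-1RAP (Il1rap) and signals through MyD88 to NF-κB. The family carries its own brakes: the IL-1 receptor antagonist (Il1rn) occupies IL-1R1 without signalling, IL-1R2 (Il1r2) captures IL-1 as a decoy that lacks a signalling domain, and the IL-18 binding protein (Il18bp) traps IL-18 before it reaches its receptor. IL-33 signals through ST2 (Il1rl1), also with IL-1RAP. Macrophages are a main source of IL-1β, which is made as a precursor and needs cleavage by caspase-1, so that mRNA levels do not give the amount of active cytokine.

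The deleted miRNA recognises mRNAs mainly through its seed, bases 2 to 8, shown in capitals in the mature strand as RefSeq gives it (GRCm38.p6, chr11:86584120-86584141, minus strand).
mmu-miR-21a-5p: uAGCUUAUcagacugauguuga
The longest annotated 3′ UTR of each of the 10 genes was searched for the complement of this seed. Matches were found in 3 genes, shown with 10 bases of DNA sequence on each side and the matching bases in capitals.
Il33: ctacatttttATAAGCTtaaaacttac
Il1rn: aaataggtggTAAGCTttccttcttt
Il1rap: attcccattgTAAGCTttatattgta
The Il33 match pairs with the whole seed and starts at base 1282 of a UTR of 1677 bases. The Il1rn match starts at base 724 of 1864 and the Il1rap match at base 2494 of 2686, and both pair with 6 bases only. Among 11246 tested genes with an annotated 3′ UTR, 5.90% held a match of the first kind as their best site and 14.6% one of the second kind, while 72.4% held none. A match is a description of the sequence and not evidence of binding, and the other 7 genes of the family held none.

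Of the 10 genes, Il18bp, Il1rn and Il1a rose in miR-21-/- TAMs, by 3.97-, 2.77- and 2.89-fold between the group means, and Il1r1 and Il1r2 fell. Il1b was higher in all 4 miR-21-/- samples than in any WT sample but did not pass the threshold, and Il18, Il1rap and Il1rl1 overlapped between the genotypes. Il33 was too low to be tested. Values are CPM (counts scaled to the same number of reads in each sample), and differences are miR-21-/- over WT on the log2(CPM + 1) scale, on which the added 1 makes differences of low genes smaller. They were fitted with limma across 13363 genes, those averaging 1 CPM or more, and a gene passed with a Benjamini-Hochberg adjusted p of at most 0.005 and a fold change over 1.5. Of the family, 9 genes were tested, each above 1 CPM in every sample, and 5 passed, 3 higher and 2 lower. Over all tested genes 7.24% passed, 2.97% higher and 4.27% lower. The groups did not overlap for 6 of the 9 genes, 4 higher and 2 lower, against 35.7% of all tested genes. The median difference of the 9 genes was 0.025, beside -0.10 over all tested genes. When samples were scaled by the median of ratios, the median over all genes was -0.0024.

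**Figure D1:**
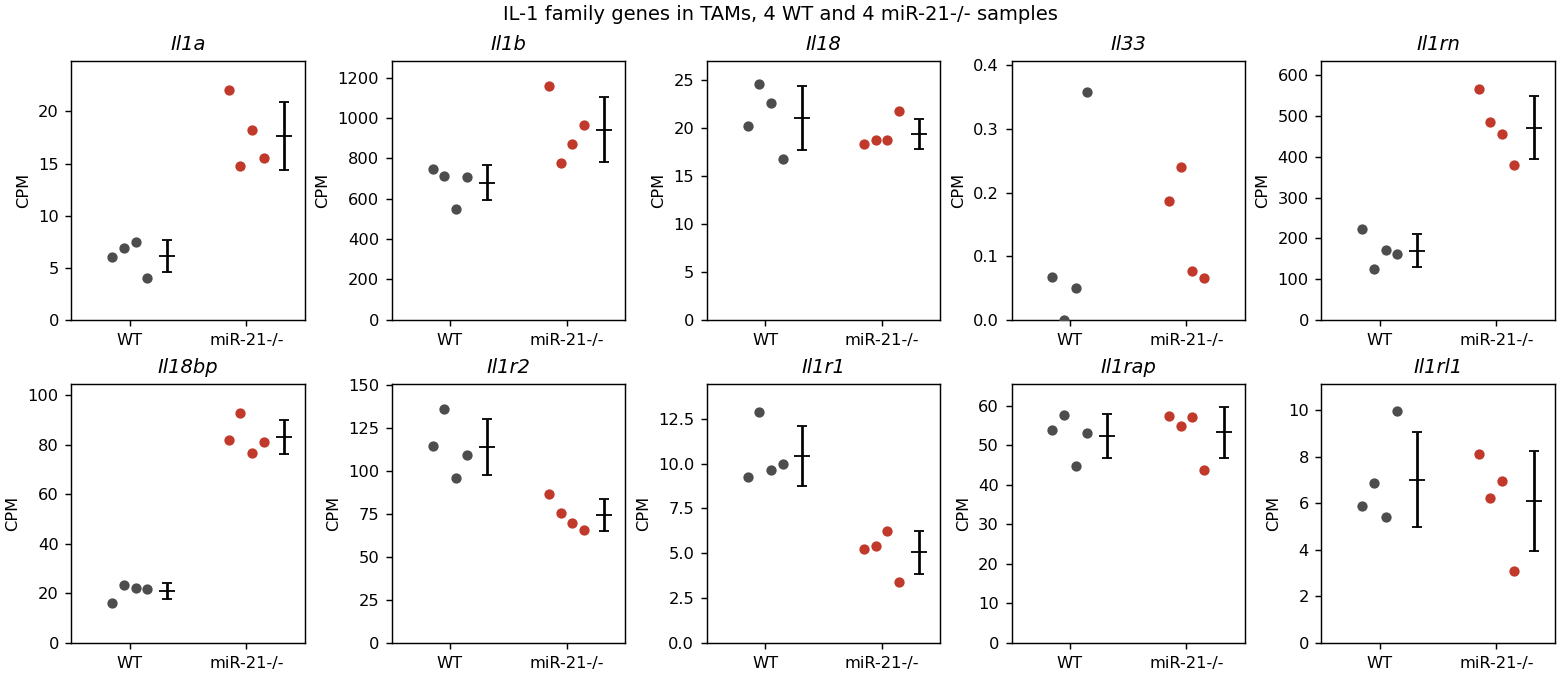
CPM of each IL-1 family gene in 4 WT (grey) and 4 miR-21-/- (red) samples of TAMs. Points are samples and bars the mean ± SD, not drawn for Il33. All 4 miR-21-/- samples lie above the WT samples for Il1a, Il1b, Il1rn and Il18bp and below them for Il1r2 and Il1r1.

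Among the ligands, Il1b was by far the most abundant. To compare levels of different genes, CPM were divided by the kb of exons, with all annotated exons of a gene merged. This length was 1.91 kb for Il1b, 5.54 kb for Il1rn and 11.4 kb for Il1rap. It can exceed the length of the transcripts present, which lowers the value of a gene, so the order is approximate. On this scale Il1b stood at 357 ± 46.3 in WT TAMs (SD over n = 4 samples, as in all values with ±) and at 494 ± 85.1 in miR-21-/- TAMs. In WT TAMs it was followed by Il1r2 at 59.7, Il1rn at 30.7, Il18 at 20.4, Il18bp at 6.93, Il1rap at 4.61, Il1a at 3.10, Il1r1 at 1.64, Il1rl1 at 1.02 and Il33 at 0.041 CPM per kb. Neighbours in this order had ranges that did not overlap, except Il1rn and Il18. In miR-21-/- TAMs, Il1rn at 85.2 stood above Il1r2 at 39.0, and Il18bp at 27.5 stood above Il18 at 18.8. They were followed by Il1a at 8.95, Il1rap at 4.70, Il1rl1 at 0.885, Il1r1 at 0.796 and Il33 at 0.049 CPM per kb, with only Il1rl1 and Il1r1 overlapping among neighbours. On this scale, Il1rn, Il18bp and the ligand Il1a each stood in miR-21-/- TAMs above a gene that they stood below in WT TAMs, Il1a above Il1rap. These crossings depend on the lengths used, and other lengths were not tried.

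Il1a (chr2:129299610-129309972, minus strand, mm10) encodes IL-1α, which is active without cleavage and can act as an alarm signal of damaged cells. It was at 6.07, 6.87, 7.51 and 4.03 CPM in WT samples 1 to 4 and at 22.1, 14.8, 18.2 and 15.6 CPM in miR-21-/- samples 1 to 4. The lowest miR-21-/- sample lay above the highest WT sample. The difference was 1.40 (SE 0.17, 95% interval 1.02 to 1.78, limma adjusted p = 0.000322). With a pseudocount of 10 it was 0.78 and still passed. Il1a shares 222 exon bases with the antisense gene Gm14023, and whether reads were counted by strand was not given in the sources used here. Gm14023 had a mean of 0.589 CPM in WT samples and of 1.16 CPM in miR-21-/- samples.

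Il1b (chr2:129364570-129371139, minus strand), the main secreted IL-1 of macrophages, was at 748, 713, 550 and 708 CPM in WT samples and at 1157, 775, 873 and 963 CPM in miR-21-/- samples. The genotypes did not overlap, although miR-21-/- sample 2 and WT sample 1 were close. The difference was 0.46 (SE 0.13, 95% interval 0.17 to 0.76), with an adjusted p of 0.0211 from limma, which misses the limit of 0.005. Leaving out 1 sample at a time gave differences of 0.36 to 0.55, the smallest without miR-21-/- sample 1, and adjusted p from 0.0133 to 0.0544. The means were 680 ± 88.3 and 942 ± 162 CPM (SD, n = 4), a ratio of 1.39. Il1b shares 25 exon bases with the antisense gene Il1bos, whose mean was 3.20 CPM in WT samples and 3.78 CPM in miR-21-/- samples.

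Il18 (chr9:50554827-50581840, plus strand) encodes a cytokine that drives IFN-γ production by T and NK cells. Its level was 20.2, 24.6, 22.6 and 16.8 CPM in WT samples and 18.4, 18.7, 18.8 and 21.8 CPM in miR-21-/- samples. The miR-21-/- values lay within the WT range. The difference was -0.10 (SE 0.11, limma adjusted p = 0.50), and its 95% interval, -0.35 to 0.14, leaves out a 1.5-fold change in either direction. Il33 (chr19:29925114-29960718, plus strand), a nuclear alarm cytokine of epithelial and stromal cells, had 0 to 9 reads per sample. It was listed at 0.067, 0.0001, 0.0496 and 0.359 CPM in WT samples and at 0.187, 0.240, 0.0769 and 0.0662 CPM in miR-21-/- samples, where 0.0001 CPM stands for no reads. Only 3 of the 8 samples had more than 3 reads, and no difference was detectable at this depth (exact two-sided permutation test, p = 0.771). The gene with the whole-seed match was therefore not measurable here, and no ratio of Il33 to its receptor was computed.

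Among the antagonists, Il1rn (chr2:24336853-24351494, plus strand) was at 222, 124, 172 and 162 CPM in WT samples and at 566, 486, 455 and 379 CPM in miR-21-/- samples. Every miR-21-/- sample exceeded every WT sample. The means were 170.0 ± 40.5 and 471 ± 77.3 CPM (SD, n = 4) and the difference was 1.48 (SE 0.17, 95% interval 1.11 to 1.85, limma adjusted p = 0.000204). Il1rn yields secreted and intracellular forms from different start sites, and gene-level values do not separate them.

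Il18bp (chr7:102014885-102018690, minus strand) had the largest difference of the 10 genes. It was at 16.3, 23.5, 22.2 and 21.9 CPM in WT samples and at 81.8, 93.0, 76.6 and 81.2 CPM in miR-21-/- samples. The lowest miR-21-/- sample stood more than 3 times above the highest WT sample. The difference was 1.95 (SE 0.11, 95% interval 1.71 to 2.19, limma adjusted p = 3.23e-06). Leaving out 1 sample at a time gave 1.84 to 2.01, all past the threshold. Il18bp shares 80 exon bases with the antisense gene Numa1, whose mean was 108.7 CPM in WT samples and 97.4 CPM in miR-21-/- samples.

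Il1r2 (chr1:40074079-40125231, plus strand), the IL-1 decoy receptor, moved opposite to Il1rn and Il18bp. It was at 114, 136, 95.9 and 109 CPM in WT samples and at 86.6, 75.4, 69.8 and 65.8 CPM in miR-21-/- samples. The groups did not overlap. The difference was -0.60 (SE 0.11, 95% interval -0.85 to -0.36, limma adjusted p = 0.00253), close to the fold limit. Of 18 alternatives 8 kept the call. It was lost after scaling by the median of ratios (-0.49) or quantile normalization (-0.56, adjusted p = 0.00567), without the trend in eBayes (adjusted p = 0.00525), with no filter, with a pseudocount of 10, and in 5 of the 8 fits that left out a sample, those without WT sample 1 or 2 or miR-21-/- sample 2, 3 or 4, with adjusted p up to 0.00928. Neutrophils also carry much IL-1R2. Of 9 tested neutrophil markers 8 were lower in miR-21-/- TAMs, 1 of them, Mmp8, past the threshold, where the median over all tested genes was -0.10 and 4.27% were called lower. Of the 10 markers listed, Camp had no reads in miR-21-/- sample 2 and the others were detected in every sample, and the sum of the list was 1121 to 2263 CPM in WT and 800 to 1155 CPM in miR-21-/- samples. Their part in the Il1r2 difference was not tested. In a sorted population, fewer cells of a type and less RNA per cell cannot be told apart.

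Of the receptor chains, Il1r1 (chr1:40225080-40317257, plus strand), which both IL-1α and IL-1β need to signal, was at 9.23, 12.9, 9.65 and 9.96 CPM in WT samples and at 5.26, 5.40, 6.22 and 3.37 CPM in miR-21-/- samples. All miR-21-/- samples were below all WT samples. The difference was -0.93 (SE 0.16, 95% interval -1.28 to -0.58, limma adjusted p = 0.00173). It was -0.83 without WT sample 2 and -0.96 without WT sample 3, both with the call lost (adjusted p = 0.00573 and 0.00517), and -0.44, under the fold limit, with a pseudocount of 10. Fibroblasts and endothelial cells carry IL-1R1 at high levels, although a sort on CD45 and CD11b is meant to leave such cells out. Of 11 tested markers of stroma, endothelium and tumor 10 were lower in miR-21-/- TAMs and 4 passed the threshold, beside the median of -0.10 and the 4.27% called lower over all tested genes, and the sum of the 12 listed was 264 to 458 CPM in WT and 232 to 310 CPM in miR-21-/- samples. The largest part of that sum was Pecam1, an endothelial adhesion molecule that some leukocytes also carry, at 132 to 282 CPM in WT samples and 186 to 275 CPM in miR-21-/- samples. Without it, the sum was 103 to 176 CPM in WT samples and 34.9 to 72.0 CPM in miR-21-/- samples, with no overlap. The 4 that fell were Col1a1, Col3a1, Pdgfra and Pdgfrb, all fibroblast or mural cell genes, at log2 differences of -2.29, -2.51, -1.89 and -1.22. Col1a1 ran from 10.1 to 29.1 CPM in WT samples and from 1.27 to 11.0 CPM in miR-21-/- samples, and the epithelial marker Epcam was at 0.132 CPM or less in all samples. Their part in the Il1r1 difference was not tested.

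Il1rap (chr16:26581704-26730117, plus strand), shared by the IL-1 and IL-33 receptors, was at 54.0, 57.7, 44.7 and 53.1 CPM in WT samples and at 57.4, 54.9, 57.3 and 43.8 CPM in miR-21-/- samples. The ranges were almost the same. Il1rap shares 552 exon bases with the antisense gene Gm20319, which averaged under 0.2 CPM in both groups. The difference was 0.025 (SE 0.10, 95% interval -0.20 to 0.25, limma adjusted p = 0.864). Il1rl1 (chr1:40429570-40465415, plus strand), which encodes membrane ST2 and a soluble decoy form that these values do not separate, was at 5.88, 6.86, 5.39 and 9.96 CPM in WT samples and at 8.14, 6.24, 6.95 and 3.08 CPM in miR-21-/- samples. The groups overlapped, with the highest sample in WT and the lowest in miR-21-/- TAMs. The difference was -0.21 (SE 0.25, 95% interval -0.76 to 0.35, limma adjusted p = 0.544), which leaves room for a change of 1.5-fold downward.

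**Figure D2:**
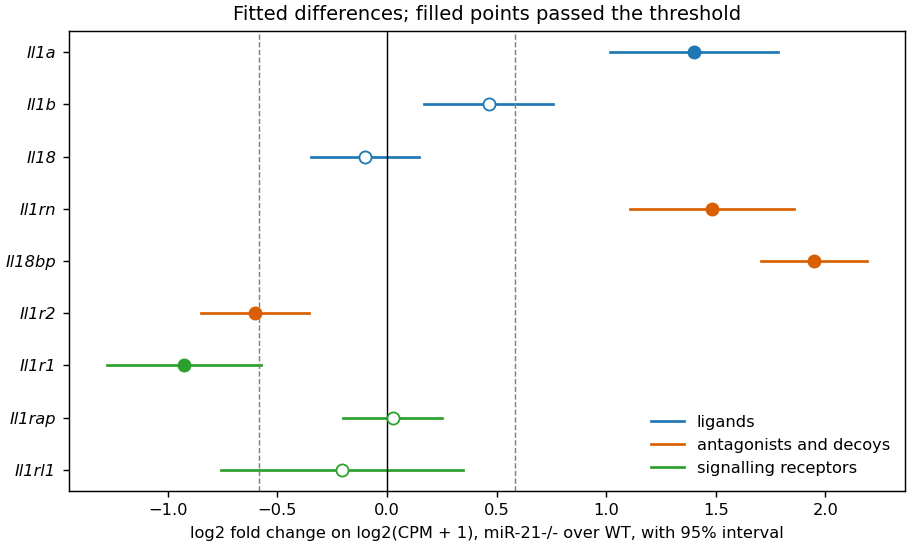
Fitted difference between miR-21-/- and WT TAMs for the 9 tested IL-1 family genes, on the log2(CPM + 1) scale, with 95% intervals from limma. Filled points passed the threshold and dashed lines mark a 1.5-fold change. Il18bp, Il1rn and Il1a lie to the right at 1.95, 1.48 and 1.40, and Il1r2 and Il1r1 to the left at -0.60 and -0.93.

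Agonists were next compared with their antagonists within each sample. There were 4 ratios, printed per sample as plain ratios of CPM, while the tested difference is that of the log2 ratio after adding 1 CPM to both genes, and with 4 samples against 4 the exact two-sided permutation test cannot give a p below 0.0286. The ratio of Il1b to Il1rn was 3.37, 5.76, 3.20 and 4.37 in WT samples and 2.04, 1.60, 1.92 and 2.54 in miR-21-/- samples. All miR-21-/- ratios were below all WT ratios. The difference of the log2 ratio was -1.02 (SE 0.24, exact permutation p = 0.0286, 0.0571 after adjustment over the 4 ratios), and -1.02 also for the plain ratios. The ratio of Il18 to Il18bp was 1.24, 1.04, 1.02 and 0.767 in WT samples and 0.224, 0.201, 0.245 and 0.268 in miR-21-/- samples. All miR-21-/- ratios were again below all WT ratios. These ratios are not per length. Per kb of merged exons Il18 was at 20.4 and Il18bp at 6.93 in WT TAMs, against 18.8 and 27.5 in miR-21-/- TAMs, as given in the order of levels. The difference was -2.05 (SE 0.16, exact permutation p = 0.0286, adjusted 0.0571), and -2.10 for the plain ratios.

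The ratio of Il1a to Il1rn averaged 0.0378 ± 0.0144 in WT and 0.0376 ± 0.00486 in miR-21-/- TAMs (SD, n = 4). With 1 CPM added, the difference of the log2 ratio was -0.080 (SE 0.27), within the spread between samples (exact permutation p = 0.743), and for the plain ratios it was 0.062 (exact permutation p = 0.83). Both genes were higher in the miR-21-/- samples. The ratio of the receptor Il1r1 to the decoy Il1r2 was 0.0918 ± 0.00838 in WT and 0.0682 ± 0.0163 in miR-21-/- TAMs (SD, n = 4). Its groups overlapped, and the difference with 1 CPM added was -0.32 (SE 0.15, exact permutation p = 0.114, adjusted 0.152). For the plain ratios it was -0.45 (exact permutation p = 0.0571).

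**Figure D3:**
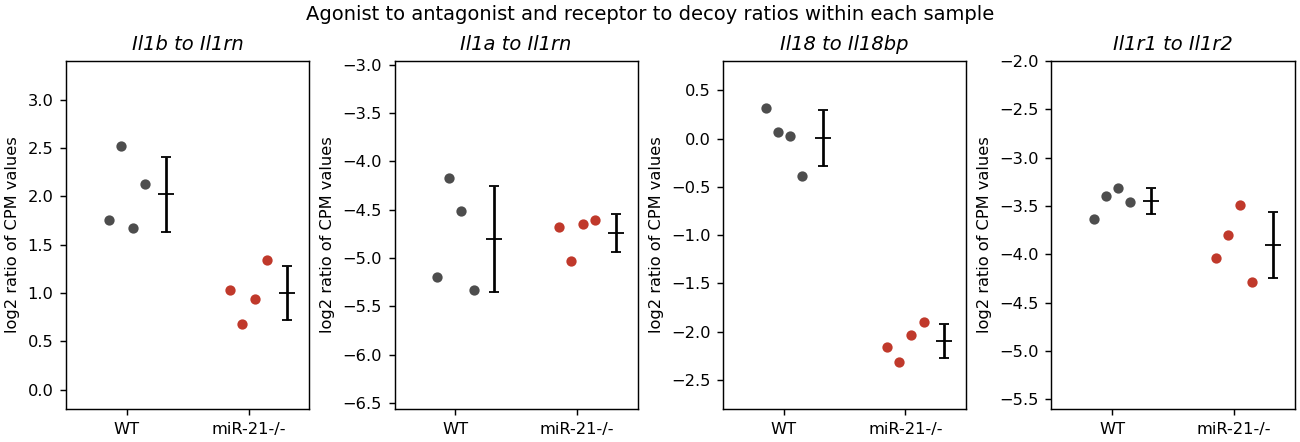
Log2 of the plain CPM ratio, with nothing added, of an agonist to its antagonist, or a receptor to its decoy, in each of 4 WT (grey) and 4 miR-21-/- (red) samples, with mean ± SD. The vertical axes differ in position but span the same range. For Il1b to Il1rn and Il18 to Il18bp all miR-21-/- samples lie below all WT samples, and for Il1a to Il1rn and Il1r1 to Il1r2 the groups overlap.

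The promoters of the 3 genes that rose are shown from 250 bases before to 50 after the start (RefSeq, GRCm38.p6), with motif matches in capitals. Both strands were searched for GAS (TTCNNNGAA), the interferon response core (GAAANNGAA), NF-κB, AP-1 (TGANTCA), CRE (TGACGTCA) and C/EBP (TTGCNNAA).
Il1a, chr2:129309923-129310222, minus strand: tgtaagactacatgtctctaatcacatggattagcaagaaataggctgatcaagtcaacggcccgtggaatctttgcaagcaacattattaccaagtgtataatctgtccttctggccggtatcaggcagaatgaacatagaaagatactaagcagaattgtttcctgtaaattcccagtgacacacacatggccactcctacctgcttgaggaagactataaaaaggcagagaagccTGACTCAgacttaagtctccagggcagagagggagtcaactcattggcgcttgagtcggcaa
Il1rn, chr2:24336610-24336909, plus strand, the first of 3 starts: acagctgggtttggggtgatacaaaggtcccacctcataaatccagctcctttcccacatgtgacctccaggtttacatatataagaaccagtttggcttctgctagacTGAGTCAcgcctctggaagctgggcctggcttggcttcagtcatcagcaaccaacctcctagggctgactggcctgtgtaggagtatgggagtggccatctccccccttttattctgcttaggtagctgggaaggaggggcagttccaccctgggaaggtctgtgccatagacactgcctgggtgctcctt
Il18bp, chr7:102018183-102018482, minus strand: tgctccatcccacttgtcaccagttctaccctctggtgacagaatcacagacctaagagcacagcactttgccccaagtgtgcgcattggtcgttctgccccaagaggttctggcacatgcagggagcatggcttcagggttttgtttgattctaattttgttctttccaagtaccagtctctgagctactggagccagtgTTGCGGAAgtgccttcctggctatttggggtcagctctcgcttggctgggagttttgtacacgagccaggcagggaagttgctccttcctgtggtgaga
The capitals mark AP-1 at position -12 in Il1a and -141 in Il1rn, and C/EBP at -49 in Il18bp. AP-1 letters were in 7.81% and C/EBP letters in 10.8% of 32851 RefSeq windows of the same length. No letters of the GAS, interferon, NF-κB or CRE motifs were in these 3 windows, against shares of 8.30%, 8.56%, 4.51% and 1.79% of all windows. The windows of Il1b and Il18 and of the other starts of Il1rn held none of the 6 motifs. In the remaining members GAS was at -111 in Il1r2, the interferon core at 20 in Il1rap and NF-κB at -232 in a start of Il1r1. C/EBP was at -133 in the other start of Il1r1, at -34 in a start of Il1rl1 and at -85 in a start of Il33.

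Other genes of the family did not pass in the fit described. The list held 11 genes, of which 10 were in the table and 5 were tested, with a median difference of 0.043. The highest was Il36g (listed as Il1f9), an epithelial cytokine, which measured 18.4 ± 4.43 CPM (SD, n = 4) in WT samples against 21.6 ± 3.88 CPM in miR-21-/- samples. The lowest was Sigirr, which encodes an inhibitory receptor of the family, at 4.24 ± 1.20 and 2.03 ± 0.491 CPM. Its groups did not overlap, and its difference was -0.77 (limma adjusted p = 0.00709). It passed with arrayWeights (-0.78, adjusted p = 0.00322) and without WT sample 1 (-0.91, adjusted p = 0.0028). Il18rap, a chain of the IL-18 receptor chosen for mention after its values were seen, was at 41.3 ± 6.07 and 43.1 ± 9.87 CPM (0.043, adjusted p = 0.847).

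Genes of cytokine maturation and release were tested as a list of 16. Of these 3 rose and 1 fell, where 2.97% of all tested genes rose and 4.27% fell. The median of the list was -0.10, as over all tested genes. Casp1, the enzyme that cleaves the IL-1β and IL-18 precursors, rose from 47.5 ± 6.98 to 97.3 ± 7.32 CPM (limma adjusted p = 7.15e-05). Casp4, mouse caspase-11, which senses intracellular lipopolysaccharide, rose from 34.7 ± 2.59 to 76.3 ± 4.53 CPM (adjusted p = 5.49e-06). Nlrp3, a sensor that activates caspase-1, rose from 111.7 ± 13.8 to 213.5 ± 14.4 CPM (adjusted p = 7.26e-05). Nlrc4, which also acts in caspase-1 activation, fell from 32.7 ± 2.82 to 20.9 ± 1.40 CPM (adjusted p = 0.000322). This call was lost without WT sample 2, with a pseudocount of 10 (-0.46) and under both other scalings, the median of ratios and quantile normalization. The other 12 genes of this list did not pass.

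Of 22 genes of receptor signalling 1 rose and none fell, with a median of -0.023, and this count is no higher than the 7.24% of all tested genes would give. It was Peli1, a ubiquitin ligase that acts on IRAK proteins, which went from 51.9 ± 2.74 to 92.1 ± 1.09 CPM (limma adjusted p = 7.11e-06). The lowest was Tab2, an adaptor of the kinase TAK1, with 260 ± 23.0 CPM in WT samples against 184 ± 5.97 CPM in miR-21-/- samples, a difference of -0.49 that stayed under the fold limit. None of the 8 genes listed for feedback passed, and their median was 0.16. Nfkbie, an inhibitor of NF-κB, was the highest at 0.56 (adjusted p = 0.00112), just under the fold limit, and it passed under both other scalings. Dusp1, a MAP kinase phosphatase, was the lowest at -0.11.

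Of 14 genes known to be induced by IL-1, 11 were tested, 3 rose and 1 fell, beside the 2.97% and 4.27% of all tested genes, and their median was 0.39. Sod2, mitochondrial superoxide dismutase, rose from 60.3 ± 4.31 to 130.1 ± 12.7 CPM (limma adjusted p = 1.67e-05), and the adhesion molecule Icam1 rose from 104.6 ± 8.29 to 183.8 ± 14.5 CPM (adjusted p = 5.72e-05). Ptgs2, cyclooxygenase 2, rose from 186.5 ± 25.5 to 287 ± 49.2 CPM (adjusted p = 0.00462). Lcn2, an iron-siderophore binding protein that neutrophils also make, fell from 26.0 ± 6.83 to 12.1 ± 3.41 CPM (adjusted p = 0.00445). The last 2 calls were kept in only 8 (Ptgs2) and 7 (Lcn2) of 18 alternatives. Both were lost with quantile normalization, with no filter and without the trend in eBayes, Ptgs2 also with arrayWeights and Lcn2 also with the median of ratios and the replicate block. Each was lost in 6 of the 8 fits without a sample, Ptgs2 in all but those without WT sample 1 or miR-21-/- sample 4 and Lcn2 in all but those without WT sample 3 or miR-21-/- sample 3. The neutrophil markers given beside Il1r2 were lower in miR-21-/- TAMs for 8 of 9 genes, and their part in the Lcn2 difference was not tested.

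The arm from IL-12 and IL-18 to IFN-γ held 12 genes, of which 9 were tested, 3 rose and 1 fell, beside the same 2.97% and 4.27%, with a median of 0.90. Il12rb1, a chain of the IL-12 and IL-23 receptors, rose from 15.6 ± 3.78 to 59.2 ± 7.06 CPM (limma adjusted p = 1.98e-05). Irf1, a transcription factor induced by IFN-γ, rose from 121 ± 17.9 to 376 ± 51.7 CPM (adjusted p = 1.67e-05). Ifngr1, the ligand-binding chain of the IFN-γ receptor, fell from 256 ± 26.6 to 154 ± 11.3 CPM (adjusted p = 0.000197). Ifng itself, chosen for mention after its values were seen, was at 0.866, 0.208, 0.484 and 0.298 CPM in WT samples and at 2.45, 2.00, 0.995 and 3.58 CPM in miR-21-/- samples. Its groups did not overlap, but its difference of 1.11 had an adjusted p of 0.00567 and did not pass. It passed with a pseudocount of 0.1 (2.07), with quantile normalization (1.24) and without miR-21-/- sample 3 (1.33), and was 0.22 with a pseudocount of 10. T and NK cell markers, whose cells make IFN-γ, were higher in miR-21-/- samples for 7 of 8 tested genes, where the median over all tested genes was -0.10. None passed the threshold, and none of the 9 listed was at 0. Cd8a was at 1.32 to 2.19 CPM in WT and 2.80 to 11.6 CPM in miR-21-/- samples, without overlap (1.28, limma adjusted p = 0.00806). The groups of the other markers of this list overlapped, where 35.7% of all tested genes did not overlap. The sum of the list was 17.6 to 34.7 CPM in WT and 20.3 to 64.7 CPM in miR-21-/- samples, and the part of these markers in the differences above was not tested.

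**Figure D4:**
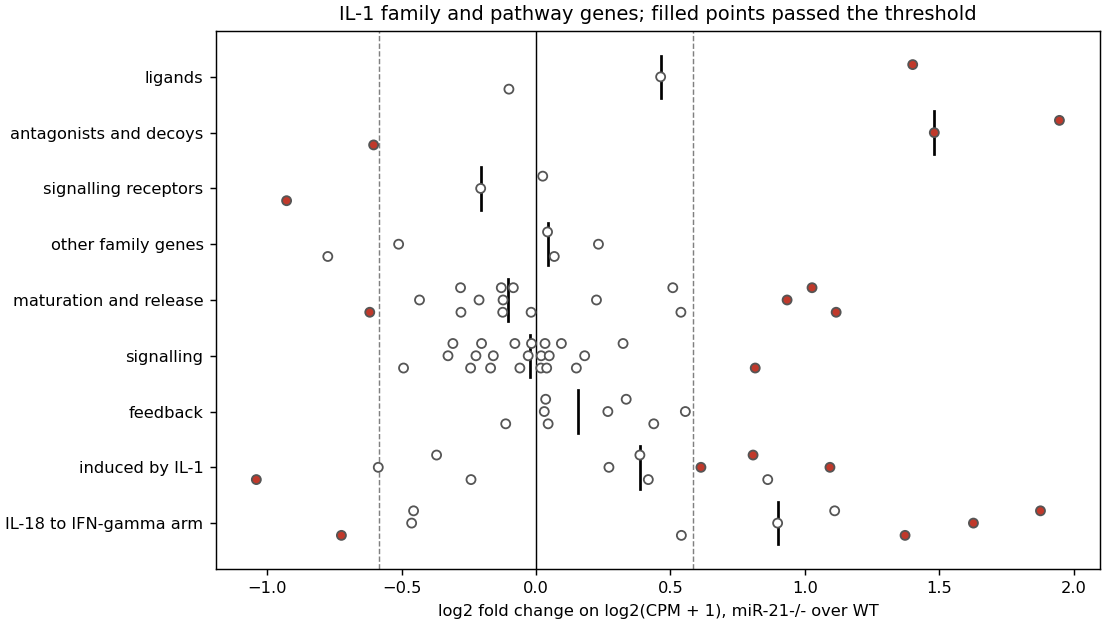
Difference between miR-21-/- and WT TAMs on the log2(CPM + 1) scale for tested genes of the IL-1 family and of its pathway, grouped by role. Each point is a gene, filled points passed the threshold, black bars are medians and dashed lines mark a 1.5-fold change. The medians of the pathway lists run from -0.10 for maturation and release to 0.90 for the IL-18 to IFN-γ arm.

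The depth was 20.2 to 33.4 in units of 1e+06 reads per sample, as read from the steps between low values, so that 3 reads correspond to 0.0899 to 0.148 CPM. All 10 macrophage markers were detected in every sample, and their sum was 9711 to 11008 CPM in WT and 9054 to 10543 CPM in miR-21-/- samples. By sign, the differences of this list split into 4 positive and 6 negative, where the median over all tested genes was -0.10. Only Fcgr1, an Fc receptor, passed, and it rose (0.75, limma adjusted p = 0.000567), where 2.97% of all tested genes rose. Adgre1, which encodes the F4/80 used in the gate, and Csf1r had the most negative differences of the list, -0.38 and -0.48, without passing. The groups did not overlap for Fcgr1, Adgre1 and Csf1r, beside 35.7% of all tested genes. The part of Adgre1 and Csf1r in the IL-1 family differences was not tested. Mir21a was listed at 0.0001 CPM in all 8 samples, so the deleted gene gives no check of the labels. In the miR-21-/- group, sample 1 was the highest for 6 of the 10 genes, Il1a, Il1b, Il1rn, Il1r2, Il1rap and Il1rl1.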

How the data were processed

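TAMs of 4 WT and 4 miR-21-/- samples were profiled by mRNA sequencing. The authors deposited 1 CPM value per gene and sample, raised by 0.0001. The submitters' processing notes name STAR, Partek 7.0 and mm10, and the counting rule and strand are not given in the sources used here. Low values up to 20 reads were whole reads in only 73.8% to 74.8% of cases (tolerance 0.02), so no count test was run. From the deposited CPM, log2(CPM + 1) was modelled by genotype in R 4.3.3 with limma 3.58.1 (lmFit, eBayes with trend) for 13363 genes averaging at least 1 CPM. Tests of ratios were exact two-sided permutations over 35 arrangements. With a simulated data set of 13363 genes, 200 of them changed, the fit called 65% of the 2-fold and 91% of the 4-fold differences in miR-21-/- against WT, and 2 unchanged genes. Table coordinates were those of GENCODE vM21 for 96.0% of 49628 matched symbols, and 3′ UTRs and overlaps came from that annotation. Sequences of the miRNA and promoters came from RefSeq (GRCm38.p6).

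The 10 genes, the pathway and marker lists and the tests were chosen with earlier results of these data known. Named were the 10 genes and, of each pathway list, the genes past the threshold and the highest and lowest difference. Of these, 1 gene is not reported here. Alternatives were pseudocounts of 0.1 and 10 (and none, for ratios), no filter, a filter of 5 CPM, quantile normalization, median of ratios, eBayes without trend, arrayWeights, a replicate block, leaving out each sample, and an adjusted p of 0.05 without a fold limit. Figures were drawn with matplotlib 3.10.9.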

Additional observations from a re-analysis of the deposited data

Results flagged for a closer look

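In miR-21-/- TAMs, Il18 was at 21.8 CPM in sample 4, apart from the other 3 samples at 18.4, 18.7 and 18.8 CPM. The gap to the nearest sample was 0.878 of the range of the group, above the 95% critical value of Dixon's test for 4 samples. Of 28 groups of 4 tested in this way it was the 1 that stood out, where chance gives about 1 in 20. The value stayed within the WT range of 16.8 to 24.6 CPM.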

How the results depend on the processing

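The calls of Il1a, Il1rn and Il18bp were kept under all alternatives run, with log2 differences of 0.78 to 1.54, 1.34 to 1.62 and 1.59 to 2.06. The number of IL-1 family genes past the threshold was 3 with no filter on low values and with a pseudocount of 10, and 3 to 5 when 1 sample was left out, lowest without WT sample 2. The genes lost were Il1r1 and Il1r2. Over all genes, 453 passed with a pseudocount of 10 and 4917 at an adjusted p of 0.05 without a fold limit, against 967, and 674 to 978 with 1 sample left out. Of the 967, 41.1% were higher, against 60.2% of 852 with the median of ratios, 60.0% of 810 with quantile normalization and 55.4% with a pseudocount of 10. Of the 4917 at an adjusted p of 0.05 without a fold limit, 26.5% were higher.

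Small differences changed sign. Il18 was at 0.0052 with the median of ratios, Il1rap at -0.0077 and Il18rap at -0.019 with arrayWeights. The medians of the maturation and release list and of the receptor signalling list were 0.0055 and 0.086 with the median of ratios. With 1 sample left out, Il1rap ran from -0.048 to 0.12, Il18rap from -0.080 to 0.17, Il1rl1 from -0.35 to 0.041 and Dusp1 from -0.30 to 0.044. The log2 ratio difference of Il1a to Il1rn was 0.046 with a pseudocount of 0.1, -0.66 with 10 (exact permutation p = 0.0286), 0.096 with quantile normalization, 0.062 with no pseudocount, an alternative added after seeing the data, and -0.23 to 0.12 with 1 sample left out. That of Il1r1 to Il1r2 was 0.11 with a pseudocount of 10 and -0.44 to -0.23 with 1 sample left out, the former without miR-21-/- sample 3 (exact permutation p = 0.0286). Those of Il1b to Il1rn and Il18 to Il18bp stayed at -1.13 to -0.85 and -2.17 to -1.95 with 1 sample left out. The causes of these shifts were not tested.

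The replicate numbers are those in the labels' descriptions, while the titles of miR-21-/- samples 2 to 4 carry other numbers or a letter, and no source ties a number to a shared litter or day. They did not pair the samples, as deviations of same-numbered samples correlated at 0.0855, -0.112, -0.148 and 0.228, and 3 of 8 samples correlated best with their own number. With the replicate number as a block, 907 genes and the same 5 members passed, the Lcn2 call was lost (adjusted p = 0.0116), and the ratio differences of -1.02 and -2.05 for Il1b to Il1rn and Il18 to Il18bp had an exact permutation p of 0.125, the smallest that 4 pairs allow.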
